A study of Homo sapiens with 4 samples.

Results

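Heat shock proteins, J-domain cochaperones and the chaperonins are the core of the cell's protein folding machinery. Their genes were taken from the deposited table by name, as the HSPA, HSPB, HSPD, HSPE, HSPH and HSP90 genes, the DNAJA, DNAJB and DNAJC genes, TCP1 with the CCT genes, and HSF1, HSF2, BAG1 and BAG3. These names matched 96 genes among 57659 rows, and 81 of the 96 had enough reads to be tested. Each gene was compared between SLFN5 siRNA (2 libraries) and control siRNA (2 libraries) in 786-0 cells, an established human renal cell carcinoma line. SLFN5 is an interferon-regulated Schlafen gene. All cells had been transfected with an siRNA, and the time after transfection and the number of siRNAs used are not stated. The libraries are called SLFN5 siRNA 1 and 2 and Control 1 and 2. In their titles library 1 of both groups carries the code S371 and library 2 the code S374, and what the codes mark is not stated. Separate cultures are not mentioned in the labels for the libraries of either group. The p-values therefore rest on the spread between these libraries, which may be technical and is estimated largely from other genes of similar level.

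Hsp70 proteins bind exposed hydrophobic stretches of a client and let go of it in an ATP cycle. J-domain proteins bring the client and start the ATP hydrolysis, and exchange factors of the Hsp110 and BAG families end the cycle. Hsp90 takes over clients near their final shape, whereas the barrel-shaped chaperonins (Hsp60 with Hsp10 in mitochondria, the TCP1 complex in the cytosol) enclose a client while it folds. Heat shock factor 1 (HSF1) drives many of these genes through heat shock elements when unfolded protein builds up.

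The values are equalised counts, which are read counts that the authors adjusted to a common library size. Depth recovered from them was 17117659 and 14700669 counts in SLFN5 siRNA 1 and 2, against 31905328 and 13187517 in Control 1 and 2. SLFN5 itself stood at 167 and 118 equalised counts in the SLFN5 siRNA libraries and at 420 and 353 in the controls (log2 change -1.45, SE 0.21, limma adjusted p 0.000524). Of 9 renal carcinoma and tubule epithelium markers 7 were tested. Of these 1 (14.3%) was higher and 2 (28.6%) lower, against 13.3% and 16.3% of all tested genes, and 4 had no call. The epithelial marker PAX8 was among those 4, at 3392 to 4129 in all 4 libraries, whereas CA9, a hypoxia marker common in renal carcinoma, was not tested and had at most 2.04. CDH6, a cadherin of kidney tubules, was higher, with 13060 and 9823 under SLFN5 siRNA and 6207 and 2888 in the controls (log2 change 1.42, SE 0.27, adjusted p 0.00215). NNMT, an enzyme abundant in renal carcinoma, was lower (log2 change -0.90, adjusted p 0.000437), as was the intermediate filament gene VIM (log2 change -0.46, adjusted p 0.0140). The summed level of the 9 markers was 102401 to 105540 under SLFN5 siRNA and 123648 to 130149 in the controls. Of 8 leukocyte markers 3 had no read, PTPRC had at most 0.588, and their summed level was 23.7 to 37.8 under SLFN5 siRNA and 10.7 to 18.5 in the controls. ITGAM, the only 1 of them tested, had 30.6 and 17.8 under SLFN5 siRNA and 11.2 and 2.21 in the controls. It did not pass (log2 difference 1.96, SE 0.71, adjusted p 0.0559). Summed endothelial markers gave 9.22 to 12.6 under SLFN5 siRNA and 5.23 to 14.8 in the controls, with no read of PECAM1. Summed fibroblast markers gave 69.2 to 99.1 under SLFN5 siRNA and 110 to 183 in the controls, and PDGFRB was lower (log2 change -1.82, adjusted p 0.0336). The part of these markers in the results was not tested.

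More chaperone genes fell than rose after SLFN5 siRNA. With limma on log2(equalised count + 1) and a Benjamini-Hochberg adjusted p under 0.05, 27 of the 81 tested genes (33.3%) were lower and 6 (7.41%) were higher, and 48 did not pass. Among all 15640 tested genes 29.6% passed, 16.3% being lower (2544 genes) and 13.3% higher (2086 genes). The median log2 change was -0.29 over the chaperone genes and -0.03 over all tested genes. Both SLFN5 siRNA libraries lay below both controls for 42 of the 81 genes (51.9%) and above them for 9 (11.1%), compared with 34.1% and 30.5% of all tested genes. Groups without overlap are thus common with 2 libraries a group, and below they only describe single genes. The 81 genes are those with enough reads and not the whole family. In bulk RNA, fewer cells expressing a gene and less of its RNA per cell cannot be told apart.

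Scaling to library totals moved the median of all genes up by 0.12 (log2) and the share of higher genes among all calls to 61.4%, against 45.1%. Without Control 2, 2934 genes were called in all. With library totals the chaperone genes had 20 lower and 7 higher calls. Without SLFN5 siRNA 1 the lower calls came to 17, and the higher calls came to 3 without Control 2 and to 3 without SLFN5 siRNA 2. A fit that ignores the trend of the variance with level called 1182 genes in place of 4630, and of the chaperone genes it called HSPA9, CCT8 and CCT2 lower and CCT6B higher.

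**Figure D1:**
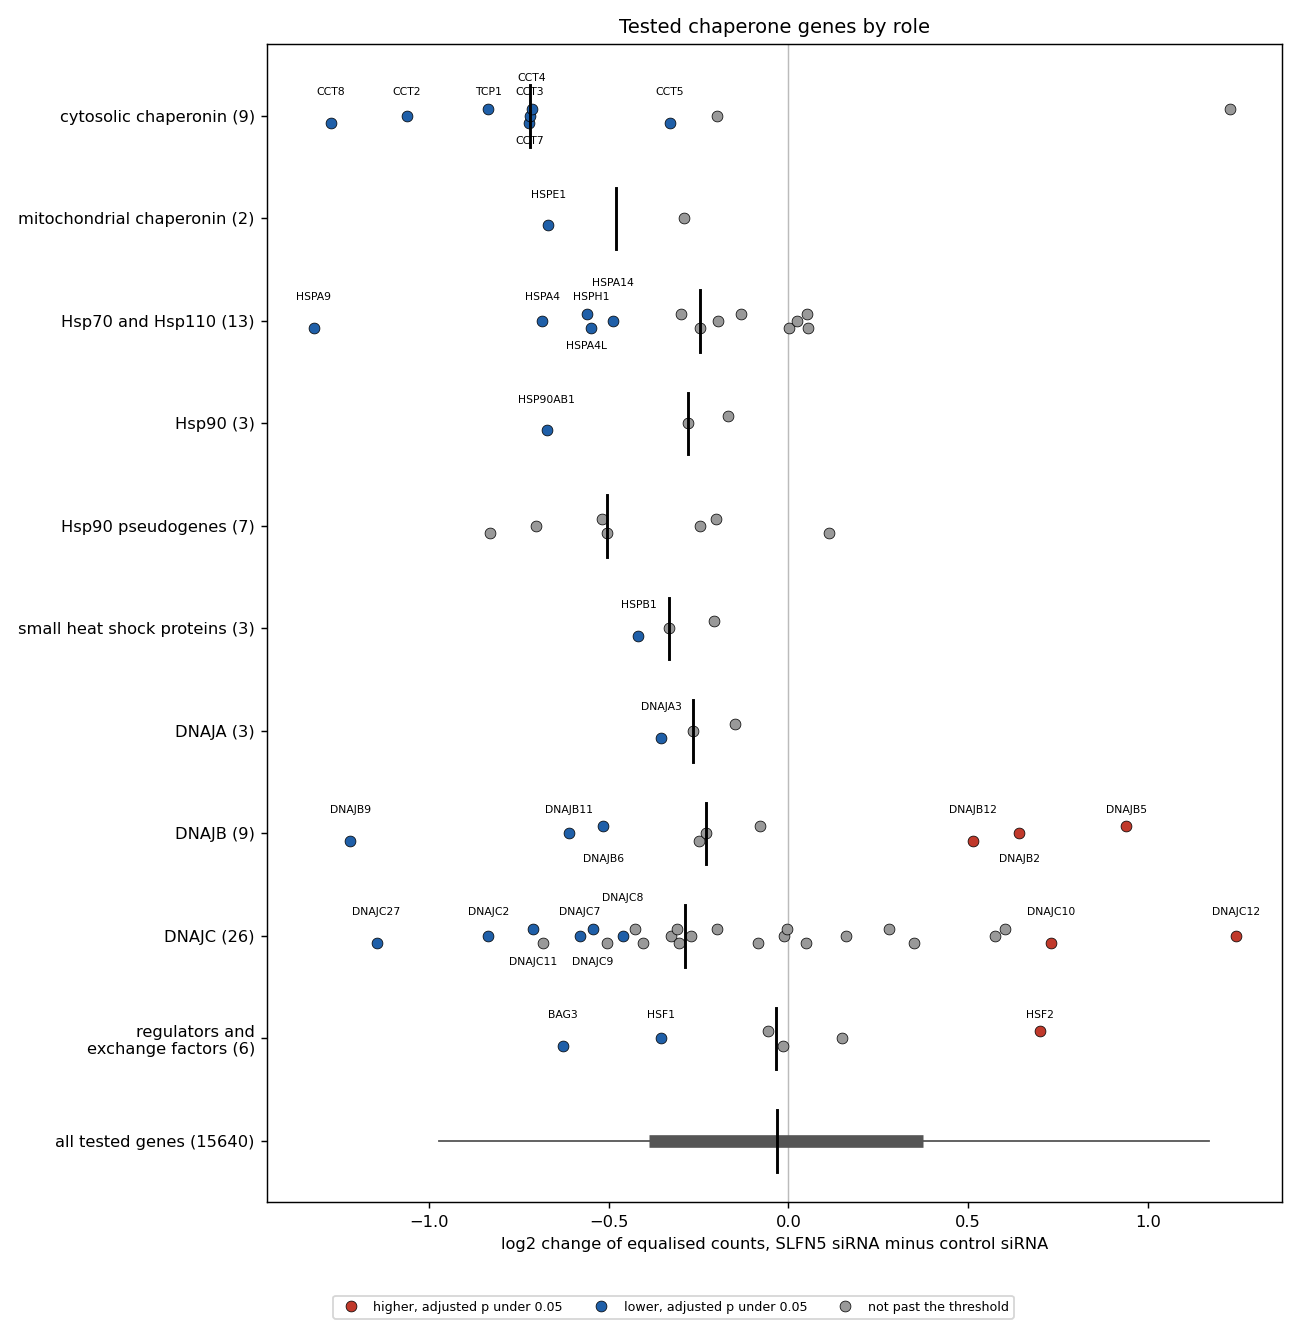
Log2 change (SLFN5 siRNA minus control siRNA) of the 81 tested chaperone genes, with 1 point per gene and 1 row per role; numbers in brackets are genes, vertical bars are medians, blue and red points passed an adjusted p of 0.05. The bottom row shows all 15640 tested genes (thick line, interquartile range; thin line, middle 90%). Blue points fill the left of the cytosolic chaperonin row, whose median is -0.72, and red points occur in the DNAJB, DNAJC and regulator rows.

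The cytosolic chaperonin had the highest share of lower genes of all roles. This ring complex, which folds actin and tubulin among other clients, is built from TCP1 and CCT subunits. Of its 9 tested genes 7 (77.8%) were lower and none was higher, with a median log2 change of -0.72. Among all tested genes 16.3% were lower and 13.3% higher. CCT8 (theta subunit) had 4300 and 5393 equalised counts in the SLFN5 siRNA libraries, against 10982 and 12326 in the controls (log2 change -1.27, SE 0.13, limma adjusted p 5.07e-05). CCT2 (beta subunit) had 4936 and 5634 under SLFN5 siRNA and 10455 and 11585 in the controls (log2 change -1.06, SE 0.11, adjusted p 7.74e-05). For both genes, the higher SLFN5 siRNA library lay far below the lower control.

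TCP1 (alpha subunit) was at 6414 and 8185 under SLFN5 siRNA and at 11882 and 14068 in the controls (log2 change -0.84, SE 0.14, adjusted p 0.000925). CCT3, CCT7 and CCT4 changed by almost the same amount. CCT3 (gamma subunit) had 10146 and 11661 under SLFN5 siRNA and 16660 and 19273 in the controls (log2 change -0.72, SE 0.12, adjusted p 0.00107). CCT7 (eta subunit) had 9612 and 10609 under SLFN5 siRNA and 16225 and 17023 in the controls (log2 change -0.72, SE 0.11, adjusted p 0.000595). CCT4 (delta subunit) had 6134 and 6860 under SLFN5 siRNA and 9881 and 11454 in the controls (log2 change -0.71, SE 0.12, adjusted p 0.000956). None of these 4 genes overlapped between groups.

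CCT5 and CCT6A stood apart from the other subunits by their small differences. CCT5 (epsilon subunit) had 16786 and 18441 under SLFN5 siRNA and 21314 and 22934 in the controls (log2 change -0.33, SE 0.11, adjusted p 0.0432). Its call was lost on leaving out any library, with adjusted p of 0.0939 without Control 1, 0.286 without Control 2, 0.193 without SLFN5 siRNA 1 and 0.0549 without SLFN5 siRNA 2. It was also lost with library totals (0.233), trimmed mean scaling (0.0637), quantile normalization (0.308) or no filter (0.0670). CCT6A (zeta subunit) had 8525 and 9286 under SLFN5 siRNA and 9957 and 10459 in the controls, a log2 difference of -0.20 (SE 0.11) that missed the threshold at an adjusted p of 0.189. Its close copy CCT6B, known for expression in testis, had 28.6 and 34.7 under SLFN5 siRNA and 12.7 and 13.0 in the controls (log2 difference 1.23, SE 0.45, adjusted p 0.0601). Reads of such similar genes can be assigned to either copy.

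Per kilobase of exon, the 8 subunits other than CCT6B spread more widely after SLFN5 siRNA. Mean levels ran between 1223 (CCT2) and 3017 (CCT5) equalised counts per kilobase under SLFN5 siRNA, a ratio of 2.47, and between 2550 (CCT2) and 4629 (CCT7) in the controls, a ratio of 1.82. The difference between these ratios was not tested. CCT8 stood at 1451 per kilobase under SLFN5 siRNA and at 3488 in the controls.

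**Figure D2:**
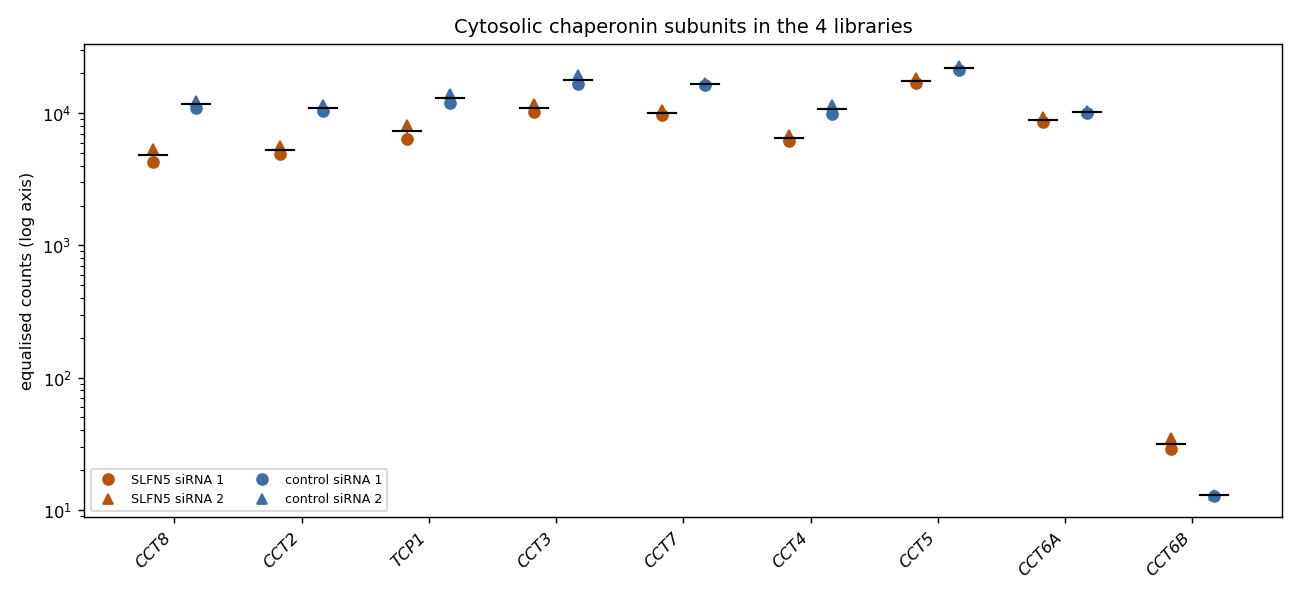
Equalised counts (log axis) of the 9 cytosolic chaperonin genes in each library, with SLFN5 siRNA in orange to the left of control siRNA in blue, circles for library 1, triangles for library 2 and horizontal bars for the mean of 2. The groups do not overlap for any gene, and CCT6B, at 12.7 to 34.7, lies far under the other 8 genes and runs the other way. Among all tested genes, both SLFN5 siRNA libraries lay below both controls for 34.1% and above them for 30.5%.

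Prefoldin, the hexamer that hands unfolded actin and tubulin to the cytosolic chaperonin, was mostly lower too. Of its 6 subunits 5 were lower, and PFDN5 (2874 and 2794 under SLFN5 siRNA, 2956 and 3037 in the controls) was not (adjusted p 0.620). VBP1 had 1263 and 1492 under SLFN5 siRNA and 2548 and 3138 in the controls (log2 change -1.04, SE 0.14, adjusted p 0.000254). PFDN4 had 546 and 701 under SLFN5 siRNA and 1075 and 1494 in the controls (log2 change -1.03, SE 0.18, adjusted p 0.00126). In the wider list of 20 prefoldin, tubulin cofactor and other chaperonin assistant genes, 10 (50%) were lower and 1 (5%) was higher. The median log2 change was -0.37, and among all tested genes 16.3% were lower and 13.3% higher. PDRG1, a prefoldin-like protein, was the next in size (log2 change -1.02, adjusted p 0.000221). BBS10, a chaperonin-like protein of Bardet-Biedl syndrome, was higher at 198 and 265 under SLFN5 siRNA, against 117 and 108 in the controls (log2 change 1.03, adjusted p 0.00518). The lower calls in this list came to 5 without Control 2, to 6 without SLFN5 siRNA 1 and to 5 with library totals. PFDN6 lost its call without Control 2 (adjusted p 0.421), without SLFN5 siRNA 1 (0.0857) and without SLFN5 siRNA 2 (0.0920).

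Among the Hsp70 and Hsp110 genes the largest fall was that of HSPA9, the mitochondrial Hsp70 (mortalin) that pulls imported proteins into the matrix. HSPA9 had 5592 and 5771 equalised counts in the SLFN5 siRNA libraries, against 13365 and 15073 in the controls (log2 change -1.32, SE 0.11, limma adjusted p 1.60e-05). This was the largest fall of any tested chaperone gene, and it passed in all 14 alternative settings. Its nucleotide exchange factor GRPEL1 had 1504 and 1667 under SLFN5 siRNA and 2711 and 3046 in the controls (log2 change -0.86, SE 0.12, adjusted p 0.000352). The paralogue GRPEL2 (654 and 743 under SLFN5 siRNA, 624 and 670 in the controls) missed the threshold at an adjusted p of 0.608. The groups did not overlap for HSPA9 or GRPEL1, and they did for GRPEL2.

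Of 13 tested Hsp70 and Hsp110 genes 5 (38.5%) were lower and none was higher, compared with 16.3% and 13.3% of all tested genes. The 3 cytosolic Hsp110 genes, whose proteins act as exchange factors of Hsp70, were all among the 5 lower genes. HSPA4 had 5273 and 5920 under SLFN5 siRNA and 8667 and 9302 in the controls (log2 change -0.68, SE 0.11, adjusted p 0.000877). HSPA4L had 839 and 1043 under SLFN5 siRNA and 1245 and 1531 in the controls (log2 change -0.56, SE 0.15, adjusted p 0.0151). HSPH1 had 2131 and 3103 under SLFN5 siRNA and 3146 and 4493 in the controls (log2 change -0.55, SE 0.19, adjusted p 0.0462). For HSPH1 the higher SLFN5 siRNA library came close to the lower control, whereas HSPA4 left a wide gap. HSPH1 lost its call without Control 2 (adjusted p 0.271), without SLFN5 siRNA 1 (0.310), and with library totals (0.0853), trimmed mean scaling (0.0732) or quantile normalization (0.161). HSPA4L lost it without Control 2 (0.143) and without SLFN5 siRNA 1 (0.0916).

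HSPA14, an Hsp70 that works at the ribosome, was lower together with its J-domain partner DNAJC2. HSPA14 had 1277 and 1455 under SLFN5 siRNA and 1806 and 2021 in the controls (log2 change -0.49, SE 0.12, adjusted p 0.0124), and the groups did not overlap. DNAJC2 is described with the other DNAJC genes. Without Control 2 the adjusted p of HSPA14 was 0.121, without SLFN5 siRNA 1 it was 0.0646, and with library totals it was 0.0508.

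The best known Hsp70 proteins did not pass in the comparison of all 4 libraries, and their libraries overlapped between groups. HSPA8, the constitutive cytosolic Hsp70, had 47411 and 66346 under SLFN5 siRNA and 54792 and 80609 in the controls (log2 difference -0.24, SE 0.19, adjusted p 0.376). Among libraries of the same title code it was lower under SLFN5 siRNA both times. A limma fit that also took the title code into account called HSPA8 lower (adjusted p 0.0181). Per kilobase of exon it was the most abundant chaperone gene, at 11730 under SLFN5 siRNA and 13962 in the controls. HSPA5 (BiP, the Hsp70 of the endoplasmic reticulum) had 5870 and 8481 under SLFN5 siRNA and 5787 and 8597 in the controls, with a log2 difference of 0.00 (SE 0.19, adjusted p 0.999). The stress-inducible pair lay far below HSPA8 in both groups. HSPA1B had 595 and 998 under SLFN5 siRNA and 594 and 1312 in the controls (log2 difference -0.20, SE 0.31, adjusted p 0.685). HSPA1A had 73.7 and 121 under SLFN5 siRNA and 86.0 and 158 in the controls (log2 difference -0.30, SE 0.33, adjusted p 0.546). These 2 genes are nearly identical, so their reads cannot be split with certainty. Without Control 1 the log2 difference was -0.52 for HSPA8 and -0.77 for HSPA1B. That fit keeps only Control 2, and both genes were higher in library 2 of each group. In the libraries of code S371, HSPA1B had 595 under SLFN5 siRNA and 594 in the control. HSPA13, HSPA12A, HSPA2 and HSPA1L differed by -0.13 to 0.05 on the log2 scale and did not pass.

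**Figure D3:**
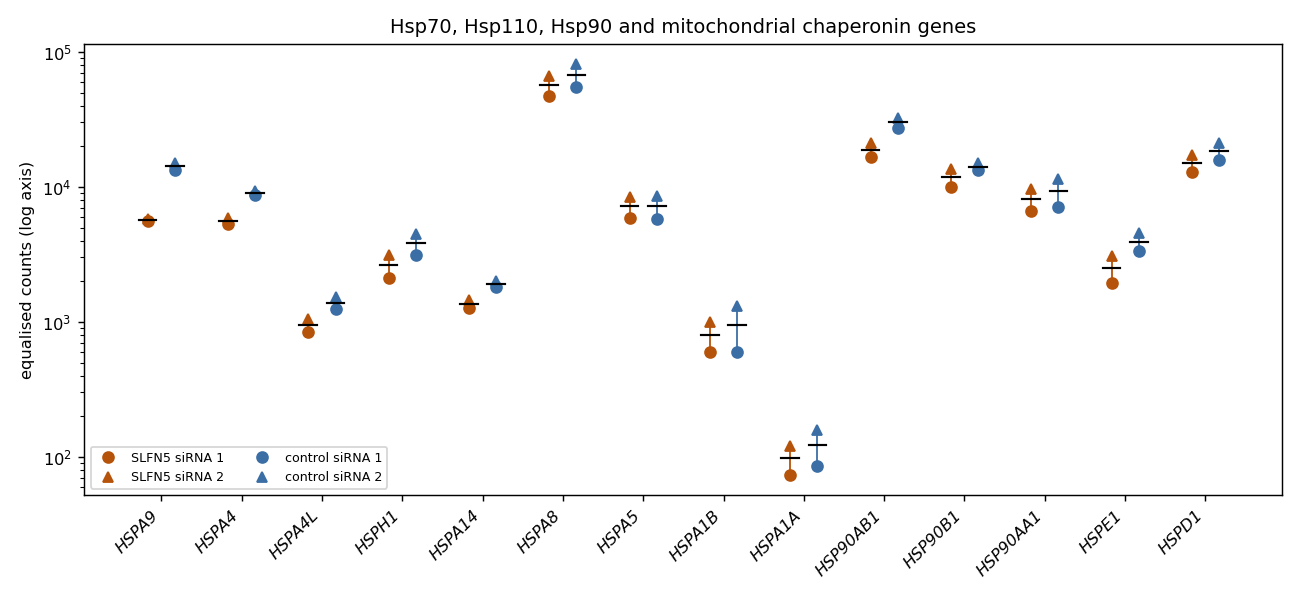
Equalised counts (log axis) of Hsp70, Hsp110, Hsp90 and mitochondrial chaperonin genes in each library, with SLFN5 siRNA in orange to the left of control siRNA in blue, circles for library 1, triangles for library 2 and horizontal bars for the mean of 2. HSPA9, HSPA4 and HSP90AB1 show a gap between groups, whereas HSPA8, HSPA5, HSPA1A, HSPA1B and HSP90AA1 overlap and have library 2 above library 1 in both groups.

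Of the 3 Hsp90 genes, the constitutive cytosolic form HSP90AB1 was lower. It had 16750 and 21051 under SLFN5 siRNA and 27504 and 32549 in the controls, with no overlap (log2 change -0.67, SE 0.14, limma adjusted p 0.00349). The inducible cytosolic form HSP90AA1 had 6657 and 9667 under SLFN5 siRNA and 7059 and 11491 in the controls (log2 difference -0.17, SE 0.21, adjusted p 0.597). HSP90B1 (GRP94), which works in the endoplasmic reticulum, had 10019 and 13473 under SLFN5 siRNA and 13259 and 15008 in the controls (log2 difference -0.28, SE 0.14, adjusted p 0.161). For HSP90AA1 and HSP90B1 the groups overlapped, although within each title code the SLFN5 siRNA library was the lower. The log2 difference was -0.52 for HSP90AA1 without Control 1 and -0.49 for HSP90B1 without SLFN5 siRNA 2. Both fits leave the title codes unequal between groups, and both genes were higher in library 2 of each group. The part of the codes in these differences was not tested. A fit of all 4 libraries that also took the title code into account called HSP90B1 lower. In addition, 7 tested Hsp90 pseudogenes, with 7.06 to 223 equalised counts, gave no call. They resemble the parent genes in sequence, and reads may be split between copies.

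In mitochondria, HSPE1 (Hsp10, the lid of the Hsp60 barrel) was lower, with 1943 and 3086 under SLFN5 siRNA and 3329 and 4546 in the controls (log2 change -0.67, SE 0.20, adjusted p 0.0248). Its neighbour HSPD1 (Hsp60) had 12981 and 17132 under SLFN5 siRNA and 15772 and 21087 in the controls (log2 difference -0.29, SE 0.16, adjusted p 0.197), and its groups overlapped, again with the SLFN5 siRNA library lower within each title code. Without Control 1 the log2 difference of HSPD1 was -0.50, in a fit that keeps only Control 2, the higher control. A fit of all 4 libraries that also took the title code into account called HSPD1 lower. HSPE1 lost its call without SLFN5 siRNA 1 (adjusted p 0.189) and without Control 2 (0.0604), and with quantile normalization (0.0885). TRAP1, the mitochondrial Hsp90, had 2225 and 2365 under SLFN5 siRNA and 3653 and 3656 in the controls (log2 change -0.67, SE 0.11, adjusted p 0.000877). Not all mitochondrial quality control genes were lower. Of 10 genes on that list 2 (20%) were lower and 2 (20%) higher, compared with 16.3% and 13.3% of all tested genes. LONP1, the matrix protease, had 3974 and 3587 under SLFN5 siRNA and 1598 and 1496 in the controls (log2 change 1.29, SE 0.11, adjusted p 2.66e-05). AFG3L2, an inner membrane protease, had 1872 and 1720 under SLFN5 siRNA and 946 and 869 in the controls (log2 change 0.98, SE 0.12, adjusted p 0.000188). CLPX, the unfoldase of another matrix protease, had 568 and 510 under SLFN5 siRNA and 966 and 978 in the controls (log2 change -0.85, SE 0.14, adjusted p 0.000817). For these 3 genes the libraries of the groups were far apart. YME1L1, the remaining call (log2 change -0.37, adjusted p 0.0237), was lost without Control 1 (0.0621), Control 2 (0.174) or SLFN5 siRNA 1 (0.118).

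Promoter sequence was read for 77 of the 96 genes from RefSeq (GRCh38.p14), as windows of 250 bases before to 50 after a start site, and 19 genes had several windows. The heat shock element was searched as GAANNTTCNNGAA, on the other strand TTCNNGAANNTTC. Of the 77 genes read, 7 held it in any of their windows (HSPA8, HSP90AA1, HSP90AB1, HSPD1, DNAJA1, DNAJB6 and HSPA6). Counted by single windows and not by genes, it stood in 172 of all 35116 (0.490%). The 2 counts differ in unit, and a gene with several windows has more places for a match. No window of the chaperonin genes TCP1, CCT2, CCT3, CCT4, CCT5, CCT6B, CCT7 or CCT8 held these letters, nor did that of HSPA9. Of the 6 tested genes with a match HSP90AB1 and DNAJB6 were lower and none was higher. Among all 81 tested chaperone genes 33.3% were lower and 7.41% higher, and among all tested genes 16.3% and 13.3%. The endoplasmic reticulum stress element, searched as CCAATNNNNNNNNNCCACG on both strands, stood in windows of HSPA5 and HSP90B1 and in 27 of all windows (0.0769%). Neither gene passed the test, and the windows of DNAJB9 and DNAJB11 held no such letters. A match is a description of the sequence and not a measured binding site. Only exact letters were counted, so windows without a match can still hold imperfect elements.

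The windows of 5 genes are printed to set the largest falls beside heat shock element promoters. HSPA9 (chr5:138575352-138575651, minus strand) and CCT8 (chr21:29073599-29073898, minus strand) fell most and hold no match. HSP90AB1 (chr6:44247693-44247992, plus strand) fell, and HSPA8 (chr11:123062087-123062386, minus strand) and HSPD1 (chr2:197499791-197500090, minus strand) did not pass. Capitals mark heat shock elements, which overlap in HSPD1, and all windows read 5′ to 3′ in the direction of the gene.
HSPA9: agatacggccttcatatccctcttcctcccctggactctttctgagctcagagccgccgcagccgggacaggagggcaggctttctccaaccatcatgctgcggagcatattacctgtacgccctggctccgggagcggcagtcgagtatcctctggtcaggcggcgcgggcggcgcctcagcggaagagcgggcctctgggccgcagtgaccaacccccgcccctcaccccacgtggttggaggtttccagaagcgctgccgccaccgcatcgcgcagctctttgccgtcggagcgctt
CCT8: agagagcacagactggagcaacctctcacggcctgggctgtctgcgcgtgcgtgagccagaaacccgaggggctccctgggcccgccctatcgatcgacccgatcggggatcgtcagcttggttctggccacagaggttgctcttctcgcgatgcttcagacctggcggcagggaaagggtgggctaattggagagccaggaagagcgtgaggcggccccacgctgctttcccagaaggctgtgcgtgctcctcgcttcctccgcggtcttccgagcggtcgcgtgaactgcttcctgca
HSP90AB1: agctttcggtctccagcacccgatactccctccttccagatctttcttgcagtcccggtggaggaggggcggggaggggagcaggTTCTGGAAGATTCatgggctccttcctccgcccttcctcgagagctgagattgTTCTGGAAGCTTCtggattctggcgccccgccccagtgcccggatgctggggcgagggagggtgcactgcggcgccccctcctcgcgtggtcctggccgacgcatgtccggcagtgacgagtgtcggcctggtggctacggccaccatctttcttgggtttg
HSPA8: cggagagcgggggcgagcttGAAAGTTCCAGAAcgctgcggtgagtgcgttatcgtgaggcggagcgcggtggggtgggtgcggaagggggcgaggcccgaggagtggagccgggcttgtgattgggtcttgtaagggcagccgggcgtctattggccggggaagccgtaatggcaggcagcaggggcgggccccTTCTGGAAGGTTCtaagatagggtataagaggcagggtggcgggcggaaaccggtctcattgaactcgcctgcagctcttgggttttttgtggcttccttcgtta
HSPD1: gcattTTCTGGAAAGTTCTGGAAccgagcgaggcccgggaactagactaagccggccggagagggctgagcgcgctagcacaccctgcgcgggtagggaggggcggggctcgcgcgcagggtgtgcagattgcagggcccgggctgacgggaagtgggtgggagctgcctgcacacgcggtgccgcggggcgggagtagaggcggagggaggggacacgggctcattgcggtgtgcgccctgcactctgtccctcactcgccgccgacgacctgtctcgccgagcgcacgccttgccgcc
Counted from the start site of the printed window, the first bases of the elements lie at -165 and -112 in HSP90AB1. In HSPA8 they lie at -230 and -55, and in HSPD1 at -245 and -240. HSP90AB1 has further windows upstream of the printed one (chr6:44245944-44246243 and chr6:44246851-44247150), and these hold no match. The further HSPD1 window (chr2:197500225-197500524) holds none either. HSPD1 and HSPE1 are divergent neighbours, and a further HSPD1 window overlaps that of HSPE1 by 204 bases.

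The small heat shock proteins hold unfolded clients without using ATP. Of 8 HSPB genes 3 were tested. HSPB1 (Hsp27) had 4204 and 4219 under SLFN5 siRNA and 5858 and 5400 in the controls, without overlap (log2 change -0.42, SE 0.11, limma adjusted p 0.0119). It lost its call without Control 1 (adjusted p 0.119) and with library totals (0.0761) or quantile normalization (0.130). HSPB8, a partner of BAG3, had 992 and 1011 under SLFN5 siRNA and 1248 and 1275 in the controls and narrowly missed the threshold (log2 difference -0.33, SE 0.12, adjusted p 0.0570). HSPB11, also a component of intraflagellar transport, differed by -0.21 (adjusted p 0.298). HSPB2, HSPB3, HSPB6, HSPB7 and HSPB9 had no recovered count in any library.

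J-domain proteins moved in both directions. Of 3 tested DNAJA genes, DNAJA3 (Tid1, the mitochondrial partner of HSPA9) was lower at 1863 and 2061 under SLFN5 siRNA, against 2362 and 2655 in the controls (log2 change -0.35, SE 0.12, adjusted p 0.0422). Its call was lost without Control 1 (adjusted p 0.0612), Control 2 (0.332) or SLFN5 siRNA 1 (0.161), and with library totals (0.193), trimmed mean scaling (0.0629) or quantile normalization (0.225). DNAJA1, a main cytosolic cochaperone of Hsp70, had 3965 and 5657 under SLFN5 siRNA and 4646 and 5933 in the controls (log2 difference -0.15, adjusted p 0.545), with overlap. DNAJA2 differed by -0.27 (adjusted p 0.114).

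Of the 9 tested DNAJB genes 3 (33.3%) were lower, 3 (33.3%) were higher and 3 did not pass. Among all tested genes 16.3% were lower and 13.3% higher. The lower DNAJB genes included the endoplasmic reticulum proteins DNAJB9 (ERdj4) and DNAJB11 (ERdj3), both cochaperones of BiP. DNAJB9 had 205 and 307 under SLFN5 siRNA and 501 and 681 in the controls (log2 change -1.22, SE 0.22, adjusted p 0.00161). DNAJB11 had 1001 and 1282 under SLFN5 siRNA and 1590 and 1879 in the controls (log2 change -0.61, SE 0.15, adjusted p 0.00895). DNAJB6, which keeps aggregation-prone proteins soluble, had 2154 and 2475 under SLFN5 siRNA and 2948 and 3692 in the controls (log2 change -0.51, SE 0.13, adjusted p 0.0129). In all 3 genes both SLFN5 siRNA libraries were under both controls. DNAJB6 lost its call with Control 2 (adjusted p 0.165) or SLFN5 siRNA 1 (0.0742) left out and with quantile normalization (0.0657), and DNAJB11 without Control 2 (0.0573) or SLFN5 siRNA 1 (0.0586).

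DNAJB12, an endoplasmic reticulum membrane protein with its J domain in the cytosol, was higher at 2617 and 2334 under SLFN5 siRNA, against 1854 and 1618 in the controls (log2 change 0.51, SE 0.12, adjusted p 0.00854). DNAJB2, a ubiquitin-binding cochaperone best known in neurons, had 881 and 995 under SLFN5 siRNA and 566 and 635 in the controls (log2 change 0.64, SE 0.14, adjusted p 0.00510). DNAJB5 was scarcer, with 93.0 and 95.2 under SLFN5 siRNA and 58.6 and 40.3 in the controls (log2 change 0.94, SE 0.30, adjusted p 0.0353). All 3 stood above the controls in both SLFN5 siRNA libraries. DNAJB12 lost its call without Control 2 (adjusted p 0.0906). The DNAJB5 call was lost without Control 2 (0.269), SLFN5 siRNA 1 (0.0880) or SLFN5 siRNA 2 (0.0938) and with quantile normalization (0.0664). DNAJB1, the main stress-inducible Hsp40, had 1623 and 1949 under SLFN5 siRNA and 1855 and 2345 in the controls and overlapped (log2 difference -0.23, SE 0.14, adjusted p 0.256).

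Of the 26 DNAJC genes, a diverse class joined only by the J domain, 6 (23.1%) were lower and 2 (7.69%) higher, compared with 16.3% and 13.3% of all tested genes. DNAJC27, which carries a small GTPase domain, had 88.9 and 62.1 under SLFN5 siRNA and 163 and 168 in the controls (log2 change -1.15, SE 0.26, adjusted p 0.00613). DNAJC2, the ribosome-bound partner of HSPA14, had 517 and 680 under SLFN5 siRNA and 1056 and 1061 in the controls (log2 change -0.83, SE 0.15, adjusted p 0.00188). DNAJC11, a protein of the mitochondrial outer membrane and cristae contacts, had 1628 and 1530 under SLFN5 siRNA and 2636 and 2529 in the controls (log2 change -0.71, SE 0.11, adjusted p 0.000806). No overlap occurred in these 3 genes, and in DNAJC27 and DNAJC2 the SLFN5 siRNA libraries differed more from each other than the controls did.

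DNAJC7, which binds both Hsp70 and Hsp90, had 1084 and 1177 under SLFN5 siRNA and 1614 and 1767 in the controls (log2 change -0.58, SE 0.12, adjusted p 0.00425). DNAJC9, a histone chaperone, had 1011 and 1168 under SLFN5 siRNA and 1607 and 1562 in the controls (log2 change -0.54, SE 0.13, adjusted p 0.00707). DNAJC8, found in spliceosomes, was lower by a smaller step (log2 change -0.46, adjusted p 0.0200), a call lost without Control 2 (0.0927) or SLFN5 siRNA 1 (0.134) and with library totals (0.0766) or quantile normalization (0.0996).

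The higher DNAJC genes were DNAJC10 and DNAJC12. DNAJC10 (ERdj5), which reduces disulphide bonds in the endoplasmic reticulum, had 3818 and 4779 under SLFN5 siRNA and 2461 and 2689 in the controls (log2 change 0.73, SE 0.13, adjusted p 0.00145). The lower SLFN5 siRNA library lay well above the higher control, so this BiP partner rose while DNAJB9 and DNAJB11 fell. DNAJC12, a cochaperone of the aromatic amino acid hydroxylases, had 81.8 and 87.1 under SLFN5 siRNA and 49.2 and 24.8 in the controls (log2 change 1.25, SE 0.36, adjusted p 0.0235). Control 2 was below Control 1 by 0.96 (log2) for DNAJC12, although the groups did not overlap. Its call was lost without Control 2 (adjusted p 0.221), SLFN5 siRNA 1 (0.0641) or SLFN5 siRNA 2 (0.0789).

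The transcription factors of the heat shock response went opposite ways. HSF1 had 2351 and 2173 under SLFN5 siRNA and 3123 and 2673 in the controls (log2 change -0.35, SE 0.12, limma adjusted p 0.0436), and its groups did not overlap. The call was lost without Control 1 (adjusted p 0.361), SLFN5 siRNA 1 (0.0569) or SLFN5 siRNA 2 (0.150), and with library totals (0.200), trimmed mean scaling (0.0563) or quantile normalization (0.224). HSF2, a related factor active in development, had 316 and 425 under SLFN5 siRNA and 223 and 227 in the controls (log2 change 0.70, SE 0.19, adjusted p 0.0168), a call lost without SLFN5 siRNA 2 (0.108). BAG3, an Hsp70 exchange factor of selective autophagy, had 318 and 390 under SLFN5 siRNA and 496 and 597 in the controls (log2 change -0.63, SE 0.17, adjusted p 0.0165). Without Control 2 its adjusted p was 0.157, and without SLFN5 siRNA 1 it was 0.0830. BAG1, a further exchange factor, had 310 and 278 under SLFN5 siRNA and 285 and 326 in the controls (adjusted p 0.845), with overlap.

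On a list of heat shock factor genes and textbook HSF1 targets outside the family, of 16 tested genes 3 were lower (FKBP4, STIP1 and MRPL18), none was higher, and the median log2 change was -0.16. This share of lower genes, 18.8%, is near the 16.3% among all tested genes. Lower calls came to 5 without Control 1 and to 7 without SLFN5 siRNA 2. FKBP4 and STIP1 also belong to the list of 20 Hsp90 cochaperones. In that list 6 genes (30%) were lower and 4 (20%) higher, compared with 16.3% and 13.3% of all tested genes. MRPL18 lost its call with Control 2 (adjusted p 0.122) or SLFN5 siRNA 1 (0.161) left out and with library totals (0.0748) or quantile normalization (0.0782). On the list of 14 other Hsp70 exchange factors, the ligase STUB1 and inhibitors, 4 (28.6%) were lower and 1 (7.14%) was higher.

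Several Hsp90 cochaperones changed in opposite directions. NUDCD1, of the NudC domain family, had 1271 and 1733 under SLFN5 siRNA and 3515 and 4509 in the controls (log2 change -1.42, SE 0.16, limma adjusted p 9.96e-05). Its relative NUDCD3 ran the other way, with 1995 and 1823 under SLFN5 siRNA and 761 and 724 in the controls (log2 change 1.36, SE 0.12, adjusted p 2.86e-05). FKBP5, a glucocorticoid-induced immunophilin, had 344 and 385 under SLFN5 siRNA and 213 and 185 in the controls (log2 change 0.87, SE 0.18, adjusted p 0.00398), whereas its paralogue FKBP4 had 2425 and 2683 under SLFN5 siRNA and 3686 and 4714 in the controls (log2 change -0.71, SE 0.13, adjusted p 0.00215). In neither pair of relatives did the groups overlap for a gene. UNC45A, a myosin cochaperone, was higher (log2 change 0.86, adjusted p 0.00151), and TTC4 lower (log2 change -1.12, adjusted p 0.0407) at 45.9 and 23.8 under SLFN5 siRNA and 68.8 and 77.7 in the controls. TTC4 lost its call without Control 1 (adjusted p 0.0664), Control 2 (0.163) or SLFN5 siRNA 2 (0.186) and with library totals (0.0520).

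Among Hsp70 partners, SGTB (log2 change -0.81, adjusted p 0.00528) and BAG2, an inhibitor of the Hsp70 ligase STUB1 (log2 change -0.77, adjusted p 0.00462), followed GRPEL1 in size. ST13 (Hip), which slows the release of clients from Hsp70, was higher at 2503 and 3127 under SLFN5 siRNA, against 1902 and 2124 in the controls (log2 change 0.48, adjusted p 0.0177). The ST13 call was lost without Control 1 (adjusted p 0.0909) or SLFN5 siRNA 2 (0.116).

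**Figure D4:**
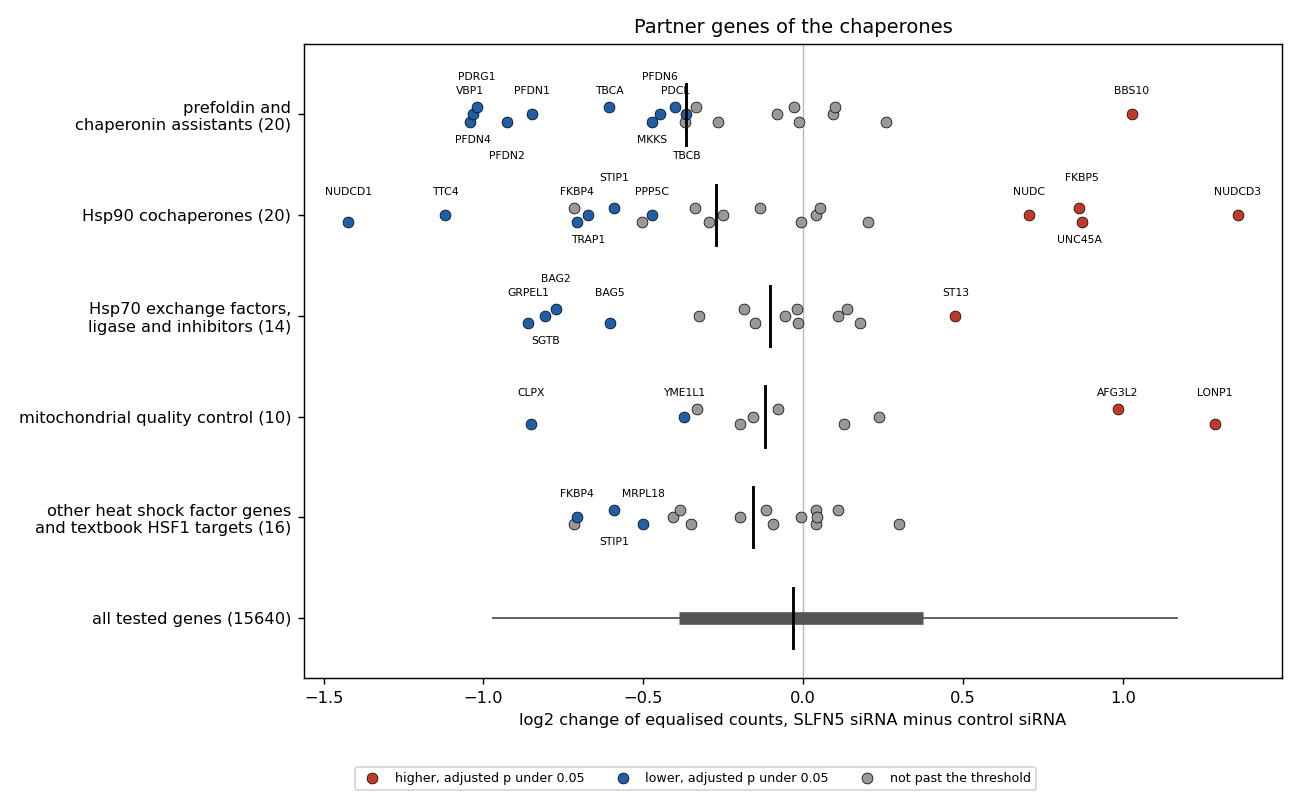
Log2 change (SLFN5 siRNA minus control siRNA) of tested partner genes of the chaperones in 5 lists, with 1 point per gene, vertical bars for medians, and blue and red points for an adjusted p under 0.05; numbers in brackets are genes. The bottom row shows all 15640 tested genes (thick line, interquartile range; thin line, middle 90%). The prefoldin row has 10 blue points and 1 red, and the Hsp90 cochaperone row has 6 blue and 4 red.

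The stress-inducible genes HSPA1A, HSPA1B and HSP90AA1 differed more between the 2 libraries of a group than between groups. HSPA1B was higher in library 2 than in library 1 by 0.74 (log2) under SLFN5 siRNA and by 1.14 in the controls. HSPA1A differed in this way by 0.71 under SLFN5 siRNA and 0.87 in the controls, and HSP90AA1 by 0.54 under SLFN5 siRNA and 0.70 in the controls. Further genes with this pattern were HSPA5 (0.53 under SLFN5 siRNA, 0.57 in the controls), HSPH1 (0.54 under SLFN5 siRNA, 0.51 in the controls) and DNAJB4, a cytosolic Hsp40 (1.17 under SLFN5 siRNA, 0.64 in the controls). With the pseudogene HSP90AB7P these were the 7 of 81 genes (8.64%) that differed by over 0.5 in both groups, compared with 1.93% of all tested genes. Library 2 was above library 1 in both groups for 53 of the 81 genes (65.4%), compared with 29% of all tested genes. The reverse, library 1 higher in both groups, was seen in 9 genes, among them DNAJC22 and HSF1.

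The 6 tested genes with a heat shock element in the window were all higher in library 2, by 0.20 to 0.54 (log2) under SLFN5 siRNA and by 0.24 to 0.70 in the controls. Library 2 was also the higher in both groups for 65.4% of the 81 tested chaperone genes. A link between the element and this difference was not tested. Of the genes that differed by over 0.5 in both groups, HSP90AA1 held an exact match. The windows read for HSPA1A, HSPA1B, HSPA5, HSPH1 and DNAJB4 held none. Those of HSPA1A and HSPA1B hold gaatattcccgac, which departs from the searched letters only at its end. HSPA9 differed between libraries by only 0.05 under SLFN5 siRNA and 0.17 in the controls, and CCT8 by 0.33 under SLFN5 siRNA and 0.17 in the controls. What sets library 1 (title code S371) and library 2 (S374) apart is not stated in the labels, and its part in the results was not tested.

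**Figure D5:**
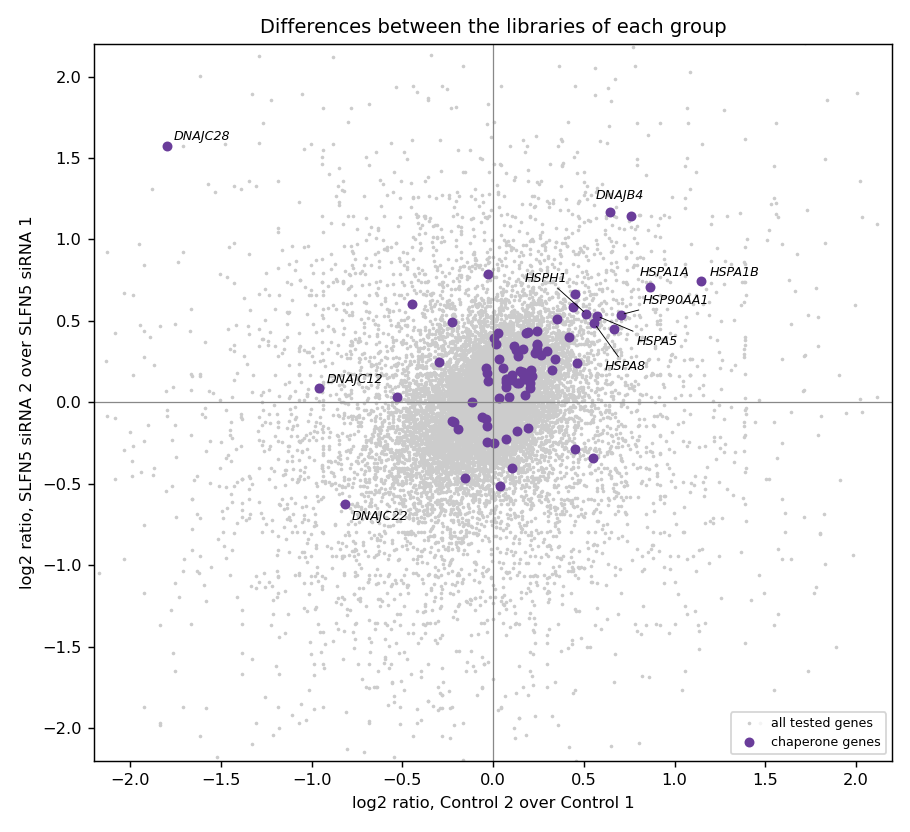
Log2 ratio of library 2 to library 1 under SLFN5 siRNA (vertical axis) against the same ratio in the controls (horizontal axis), with 1 point per gene, purple for chaperone genes and grey for all tested genes; 172 genes beyond 2.2 in either ratio are outside the axes. HSPA1A, HSPA1B, HSP90AA1, HSPA5, HSPH1 and DNAJB4 lie in the upper right, where library 2 is higher in both groups, and DNAJC28, a gene of low counts, lies at 1.57 under SLFN5 siRNA and -1.80 in the controls.

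The 15 untested genes had at most 12.5 equalised counts in any library. They include HSPA6 and HSPA7, DNAJA4, DNAJB7, DNAJB13 and the pseudogenes HSP90AA5P and HSP90AB6P, each with few reads. DNAJB3, DNAJB8 and HSPA12B, like 5 HSPB genes, had no recovered count. Of the 48 tested genes without a call, the DNAJC genes reached log2 differences of -0.68 (DNAJC18, adjusted p 0.0630) to 0.60 (DNAJC4, adjusted p 0.146). HSPBP1 and HSPBAP1, an Hsp70 exchange factor and a binding partner of HSPB1, differed by -0.01 and 0.15.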

How the data were processed

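Poly(A)-selected RNA of 786-0 cells was sequenced in 4 libraries, 2 per group, per the labels' protocols; the design text of the series speaks of triplicates. The submitters' processing notes name hg19 and edgeR. For the aligner, counting program, annotation and use of strand, a statement was not given in the sources used here. Deposited signal per gene is not whole: the authors adjusted counts by quantiles to a common library size within each group (equalised counts). Inverting this adjustment (dispersion 0.0162) returned all 230636 values from whole counts within a relative difference of 1.08e-08 and gave the depths, 2.42 times apart at most. The planned count test was therefore replaced as foreseen.

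Testing required a value of 10 or more in 2 or more libraries. It used limma 3.58.1 (R 4.3.3) on log2(value + 1) with an intensity trend (residual df 2, prior df 9.60). Benjamini-Hochberg adjustment ran over all 15640 genes. The log2(value + 1) scale understates changes of low genes. The procedure was tested on simulated data. Exon lengths per gene (GENCODE) were used only for levels per kilobase.

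Members and gene lists were chosen with earlier results of these data known. Pseudogenes named with a final P and digits were left out (36 rows), and 19 repeated rows were merged to the highest. Values in every library are given for main Hsp70, Hsp90, HSPB and DNAJ genes, all chaperonin subunits and, per role, up to 5 calls per direction; of other lists, up to 3. The ratio of chaperonin subunits and genes named for library differences were chosen after their values were seen, as were other partner genes beyond that rule. Alternatives changed the pseudocount, filter, scaling, variance model, replicate block and libraries included.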

Additional observations from a re-analysis of the deposited data

How the results depend on the processing

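Ignoring the variance trend left 1182 genes called, and chaperone calls of 3 lower and 1 higher. By role these were 2 lower and 1 higher in the cytosolic chaperonin and 1 lower in Hsp70 and Hsp110, with 0 in either direction for Hsp90, the mitochondrial chaperonin, small heat shock proteins, DNAJA, DNAJB, DNAJC and the regulators. It left 2 lower and 0 higher prefoldin and assistant genes, 1 lower and 1 higher Hsp90 cochaperone, 1 lower (CLPX) and 2 higher (LONP1 and AFG3L2) mitochondrial quality control genes, and 0 HSF1 targets and 0 Hsp70 exchange factors. Same-numbered libraries share a title code (S371 or S374) across groups, but what it marks is not stated, so the pairing was used only as an alternative. Differences between libraries 2 and 1 within each group correlated across all 15640 tested genes at Pearson r 0.190 and Spearman rho 0.255. Across the 81 tested chaperone genes these were 0.158 and 0.460. Genes are not independent replicates. With a replicate block (residual df 1), 6703 genes were called, with 42 lower and 8 higher chaperone genes: 1 higher in the cytosolic chaperonin, and lower 2 Hsp90, 2 mitochondrial chaperonin, 2 small heat shock protein, 2 DNAJA, 5 DNAJB and 12 DNAJC genes. It also called 10 Hsp90 cochaperones lower, and 6 HSF1 targets lower and 1 higher. Genes that missed the threshold without the block and passed as lower with it included HSPD1 (adjusted p 0.00303), HSP90B1 (0.00604), DNAJA2 (0.0135), HSPA8 (0.0181), CCT6A (0.0379) and DNAJB1 (0.0380), and CCT6B passed as higher (0.0405).

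Library totals gave 1 higher chaperonin gene, 3 lower Hsp70 genes, 0 lower small heat shock proteins, 0 lower DNAJA genes, 1 lower regulator, 1 lower mitochondrial quality control gene, 1 higher HSF1 target and 5 lower prefoldin genes. Quantile normalization gave 0 lower mitochondrial chaperonin, small heat shock protein and DNAJA genes, 1 lower regulator, 2 higher Hsp70 exchange factors and 1 lower mitochondrial quality control gene. Trimmed mean scaling gave 0 lower DNAJA genes and 1 lower regulator, and a filter at 50 gave 2 lower small heat shock proteins. The causes were not tested.

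Leaving out a library in turn gave 2934 to 4084 called genes, 17 to 29 lower and 3 to 7 higher chaperone genes, and a median log2 change of -0.42 to -0.21. By role it gave 2 to 7 lower Hsp70, 1 to 2 Hsp90, 0 to 2 mitochondrial chaperonin, 0 to 1 small heat shock protein, 0 to 1 DNAJA and 1 to 3 DNAJB genes, 1 to 3 higher DNAJB and 1 to 3 higher DNAJC genes, and 0 to 1 lower and 0 to 1 higher regulators. Partner lists gave 0 to 1 higher Hsp70 exchange factor, 1 to 2 lower mitochondrial quality control genes, 2 to 7 lower HSF1 targets and 5 to 10 lower prefoldin genes. Lower chaperonin calls stayed at 6 in each of these fits. With a library left out, the lone library of its group is assumed to vary like the other group. Of 33 called chaperone genes 3 passed in all 14 alternatives, 14 missed only without the variance trend and 16 missed in at least 2. No direction of a called gene reversed. With 2 libraries a group, moderate changes can be missed, and genes without a call are not shown to be unchanged.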
